A study of Mus musculus with 10 samples.

Results

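The cytosolic ribosomal proteins are the protein parts of the ribosomes that translate messenger RNA outside the mitochondria. They were taken by name, as every gene symbol of the form Rpl or Rps plus a number (with a final a, l or x allowed), together with Rplp0, Rplp1, Rplp2 and Rpsa. The pattern found 80 of the 17658 listed genes, 48 of the large subunit and 32 of the small subunit. Of these, 79 had a mean of at least 1 FPKM (fragments scaled to transcript length and to a library's mapped fragments) over the libraries and were tested, among 10225 tested genes in all. The member left out of the tests was Rpl3l, a paralog known from muscle, which was listed at 0 in every library but one.

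Polyadenylated RNA was sequenced from B cells of spleen and lymph node, enriched by magnetic removal of other cells, from C57BL/6 mice 10 weeks old. The wild-type mice were Nr4a1+/+ and the knockout mice Nr4a1-/-. Nr4a1, or Nur77, is an orphan nuclear receptor that the B cell antigen receptor induces. Each genotype gave 1 unstimulated library, lettered A, and 4 libraries, A to D, of cells kept for 2 h with anti-IgM at 10 µg/mL; the antibody binds and clusters that receptor. The labels do not say whether letters stand for separate mice, nor how the knockout allele was built or in which other cells it acts. The labels also give no time in culture for the unstimulated libraries. Antibody and 2 h of culture therefore cannot be told apart in any comparison with them. If the libraries of a group were not from separate animals, the p-values measure only the spread between these libraries.

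A ribosome holds 1 copy of nearly every ribosomal protein, and a cell makes these proteins in matched amounts. Their mRNAs are short and very abundant, and most begin with a C followed by a run of pyrimidines, the terminal oligopyrimidine (TOP) tract. Through this tract the kinase mTOR and the RNA-binding protein Larp1 control translation and stability of the mRNAs. Antigen receptor signalling brings a resting B cell toward growth and division, which calls for more ribosomes, and Myc is a known activator of the genes for ribosome assembly.

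B cell markers were far above those of other lymphocytes: the summed level of 9 B cell markers was 8299 to 11900 FPKM per library, against 19.96 to 76.36 for 8 T cell markers and 1.29 to 2.5 for 5 NK cell markers. The T cell sum was nearly all Lck and Cd5, while Cd3d, Cd3e, Cd3g, Cd4, Cd8a and Cd8b1 were each below 1 FPKM in every library. The 6 erythroid genes summed to 123 FPKM in unstimulated wild type, to 40.21 in unstimulated knockout and to 7.84 to 66.75 in stimulated libraries. The 9 myeloid genes summed to 76.81 and 92.4 FPKM in unstimulated wild type and knockout and to 24.61 to 140.8 in stimulated libraries, mostly Lyz2, which reached 115 FPKM in wild-type library B and 82.57 in knockout library B. With anti-IgM 7 of 9 B cell markers, 2 of 7 tested myeloid and 3 of 3 tested erythroid genes were called lower. Called higher were 1 of 9 B cell markers, 2 of 2 tested T cell genes and 1 of 1 tested NK cell gene. Of all tested genes, 47.7% were called lower and 31.2% higher. The part of these markers in any result below was not tested. The targeted gene did not separate the libraries of the genotypes: Nr4a1 stood at 126.4 and 125.6 FPKM in the unstimulated wild-type and knockout libraries, and at 744.2 to 856.1 against 660.2 to 760 FPKM after anti-IgM, ranges that overlap although the knockout was called lower (log2 difference -0.20, limma adjusted p = 0.0432). Genotype below therefore means the label of a library. FPKM keep no read totals, so no counting interval can be given.

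The start of several members is shown because it carries the TOP tract for which this gene group is known. Of the 80 members, 59 had a promoter in the RefSeq table of build GRCm38.p6. In 13 of the 59 (22.03%) a C and at least 4 further pyrimidines began exactly at the annotated start, against 2.728% of the other tested genes. Within 5 bases of the start such a tract was found in 28 of the 59 (47.46%), against 23.35% of the other tested genes. The windows below run from 25 bases before to 25 bases from the start, 5′ to 3′ on the gene's strand, with the tract in capitals. Rps27 lies at chr3:90213624-90213673 (minus strand), Rps21 at chr2:180257354-180257403 (plus), Rpl38 at chr11:114668555-114668604 (plus), Rplp2 at chr7:141447626-141447675 (plus), Rps2 at chr17:24720038-24720087 (plus), Rps27l at chr9:66946061-66946110 (plus) and Rpl37a at chr1:72711235-72711284 (plus).
Rps27: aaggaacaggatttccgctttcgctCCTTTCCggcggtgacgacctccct
Rps21: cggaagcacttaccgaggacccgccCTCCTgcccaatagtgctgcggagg
Rpl38: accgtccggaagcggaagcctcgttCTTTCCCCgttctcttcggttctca
Rplp2: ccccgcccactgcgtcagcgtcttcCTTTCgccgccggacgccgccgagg
Rps2: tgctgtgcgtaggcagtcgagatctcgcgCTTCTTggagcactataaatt
Rps27l: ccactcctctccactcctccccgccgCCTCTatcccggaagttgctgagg
Rpl37a: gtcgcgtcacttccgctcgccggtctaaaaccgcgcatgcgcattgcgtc

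In Rps27, Rps21, Rpl38 and Rplp2 the tract began at the start itself, in Rps27l 1 base and in Rps2 4 bases after it, and in Rpl37a none was found within the 5 bases. Rps21 and Rps27l each have a second annotated start in the table, not shown, with no such tract, and a member was counted where any of its starts had one. Over the whole window of 250 bases before and 50 bases after the start, on both strands, CCGGAA, the core bound by ETS factors, was found in 33 of 59 members (55.93%) and in 35.49% of other tested genes. ATGGCG, the core of the YY1 site, was found in 18 members (30.51%) against 20.12%. CACGTG, the E-box that Myc and Max bind, was found in 6 members (10.17%) against 12.86%. TATAAA was found in 6 members (10.17%) against 8.023%. A match describes the letters of the window and is not evidence of binding.

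The members were among the most abundant mRNAs of these cells. Of the 100 genes with the highest mean FPKM, 64 were members, 36 of the large and 28 of the small subunit. The median member stood at 1779 FPKM, with 1591 for the large and 1923 for the small subunit. The middle part of the members, from the first to the third quartile, lay between 1112 and 2181 FPKM. FPKM are scaled to transcript length, yet the members' mean level still fell with length. Over the 75 members with at least 200 FPKM, Spearman's rho was -0.3422 with coding length and -0.4053 with transcript length, as a description. Whether the scaling is even across short and long transcripts was not tested, so comparisons of level between genes carry this limit.

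Rps27, a small subunit protein with a zinc-binding motif, was the most abundant member at a mean of 8436 FPKM over the 10 libraries, followed by Rps29, a small zinc-binding protein, at 3472 FPKM and Rps12, another small subunit protein, at 3100 FPKM. At the other end were the paralogs Rpl39l at 1.47 FPKM, known from testis, and Rps4l at 4.209 FPKM. Rps27l, a paralog of Rps27 known as a p53 target, stood at 154.1 FPKM. Rpl39l and Rps4l were low in every library: the highest value of Rpl39l was 7.6 FPKM, in stimulated knockout library A, and that of Rps4l 5.97 FPKM, in the same library. Rps4x, the X-linked counterpart of Rps4l, stood at 2327 FPKM. Many ribosomal protein genes have near-identical processed copies in the genome, and reads shared with them could be divided differently by another counter. The 6 listed rows named as processed copies of members, such as Rpl31-ps12 and Rpl14-ps1, summed to 331.7 to 520.3 FPKM per library.

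The order of the members differed little between libraries. Over the 75 members with a mean of at least 200 FPKM, Spearman's rho of the levels between any 2 libraries ran from 0.9118 to 0.9964, as a description across genes.

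Members together held less of the RNA after anti-IgM than before it. Their share of a library's summed FPKM was 30.95% in unstimulated wild type and 25.59% in unstimulated knockout. With the antibody it was 22.31%, 23.49%, 23.07% and 22.63% in wild-type libraries A to D, a mean of 22.87% ± 0.515 (SD, n = 4). In the stimulated knockout libraries A to D it was 21.99%, 22.13%, 22.79% and 22.67%, a mean of 22.39% ± 0.393 (SD, n = 4). All 8 stimulated libraries lay below both unstimulated ones, while the genotypes overlapped after stimulation. In bulk RNA, a lower level per cell and a smaller number of cells with a high level cannot be told apart. A share also falls when other transcripts rise, and FPKM give no amount per cell.

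**Figure D1:**
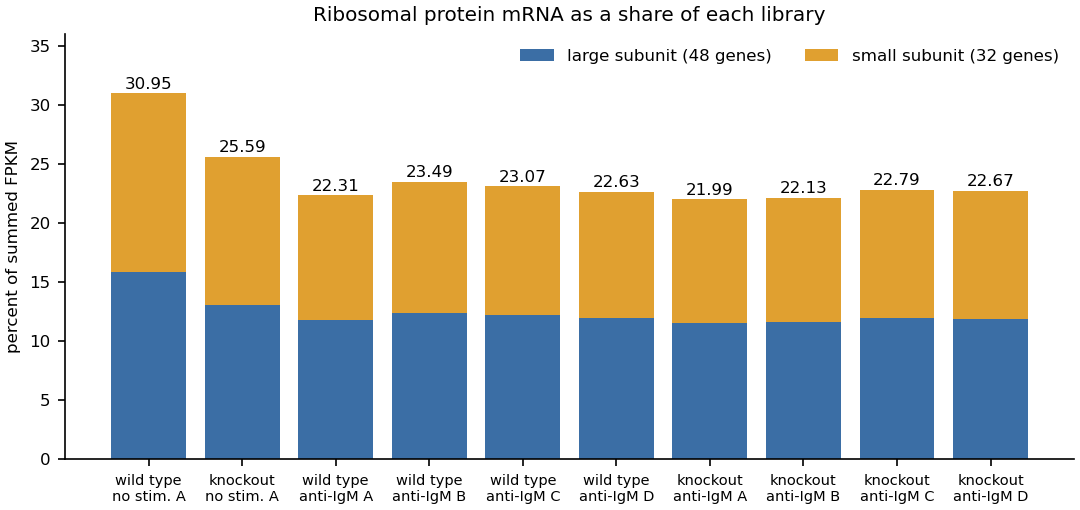
Share of the summed FPKM of each library held by the large subunit genes (blue) and the small subunit genes (orange), in percent, with the total above each bar. The unstimulated wild-type library stands highest at 30.95%, the unstimulated knockout library next at 25.59%, and the 8 stimulated libraries lie between 21.99% and 23.49%.

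The summed shares of the subunits did not fall equally. The summed FPKM of large subunit genes over that of small subunit genes was 1.046 and 1.041 in the unstimulated wild-type and knockout libraries. It was 1.112 ± 0.0025 (SD, n = 4) in the stimulated wild-type libraries, with a range of 1.109 to 1.115, and 1.103 ± 0.0039 (SD, n = 4) in the stimulated knockout libraries, with a range of 1.097 to 1.106. Stimulated libraries were all above the unstimulated ones, and the stimulated genotypes did not overlap, at a difference under 1%. The ratio sums over members and was given no test. Abundant members weigh most in it: Rps27 alone, of the small subunit, held 7.383% and 6.741% of the members' sum in the unstimulated wild-type and knockout libraries. In the stimulated libraries it held 5.611% to 5.895%. The ratio without Rps27 is not given, and the part of Rps27 in the change was not tested. In the stimulation fit described below, the median log2 change was -0.39 for the 47 large and -0.47 for the 32 small subunit members. That order turned under quantile normalization.

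Replicates moved together across the whole group. Among the 75 members with at least 200 FPKM, wild-type stimulated library B held the highest of the 4 wild-type values for 56 members and library A the lowest for 58. Among the knockout libraries, C was highest for 50 members and A lowest for 56. The median SD between the 4 libraries was 0.047 on the log2 scale in wild type and 0.044 in knockout for these members, against 0.038 and 0.047 for the 263 other genes of at least 200 FPKM. Members are therefore not independent readings of a condition.

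The replicated comparison of this study asked whether genotype changed transcript levels after anti-IgM. Few ribosomal protein mRNAs differed. Of 79 tested members, 1 was lower and 0 were higher in the knockout libraries (limma, 8 libraries, adjusted p under 0.05), where 5.81% of all tested genes were lower and 3.91% higher. At an unadjusted p under 0.05 there were 9 of 79 members and 2262 of all 10225 tested genes. The median difference was -0.026 on the log2(FPKM + 1) scale, against -0.024 for all tested genes. For 76 of the 79 members the 95% interval of the difference lay within 0.2 log2 units of 0, so a larger difference in either direction lay outside the interval for these. The T cell marker sum, chiefly Lck, was 51.86 to 56.27 FPKM in the stimulated wild-type libraries and 74.04 to 76.36 in the knockout ones, and its part in the genotype values was not tested.

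The called member was Rpl36, a large subunit protein. In wild type, stimulated libraries A to D, it stood at 1346, 1390, 1363 and 1365 FPKM, and in knockout at 1274, 1242, 1308 and 1250 FPKM. Every knockout value was below every wild-type value, at means of 1268 ± 29.6 and 1366 ± 17.9 FPKM (SD, n = 4 each). The log2 difference was -0.11 (SE 0.0243, limma adjusted p = 0.0234). The call was lost under 11 of 21 alternatives, among them median-of-ratios scaling, where the difference was -0.063 (limma adjusted p = 0.354), and removal of GC and length trends, where it was -0.018 (limma adjusted p = 0.792). It was also lost when wild-type library B, C or D or knockout library A, B or D was left out, with limma adjusted p between 0.0527 and 0.0698, and adjusted p over all alternatives ran from 0.0135 to 0.792.

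Rpl30, a large subunit protein, had the most negative difference. It stood at 1723, 1793, 1846 and 1681 FPKM in wild type and at 1321, 1550, 1636 and 1592 FPKM. The groups did not overlap, and knockout library A was the lowest of all. The log2 difference was -0.21 (SE 0.0635) and did not pass the test (limma adjusted p = 0.0733). Rps26, which contacts the mRNA near the exit of its channel on the small subunit, held 1604, 1756, 1733 and 1682 FPKM in wild type and 1511, 1551, 1600 and 1596 FPKM in knockout, again without overlap, and also did not pass the test (-0.11, SE 0.034, limma adjusted p = 0.0711). It passed under 5 of 21 alternatives.

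In all, 4 members had stimulated libraries that did not overlap with knockout lower and 0 with knockout higher. Of all tested genes, 9.57% did so with knockout lower and 5.96% with knockout higher, so the members' share is near that of other genes or below it. The 4 were Rpl36, Rpl30, Rps26 and Rpl29, the last named after its values were seen (1095 to 1125 FPKM in wild type, 1045 to 1088 in knockout, log2 difference -0.065, limma adjusted p = 0.11).

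Below 0 lay 72 of the 79 members and 6243 of all 10225 tested genes. The median of all tested genes was itself below 0, at -0.024, and 43 of the 79 members lay below that median. The naming rule takes both ends of the order, and none of the other members it names passed. Rpl37 differed by -0.095 (limma adjusted p = 0.0906) and Rpl28 by -0.082 (limma adjusted p = 0.109). At the upper end were Rps19, a protein whose loss is a cause of Diamond-Blackfan anaemia, at 0.03, Rps27l at 0.04 and Rpl14 at 0.0087. The low paralogs Rpl39l and Rps4l had the highest point estimates, 0.71 (SE 0.587) and 0.16 (SE 0.215), with intervals that span 0 widely. The median was -0.03 for the 47 large and -0.019 for the 32 small subunit members.

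**Figure D2:**
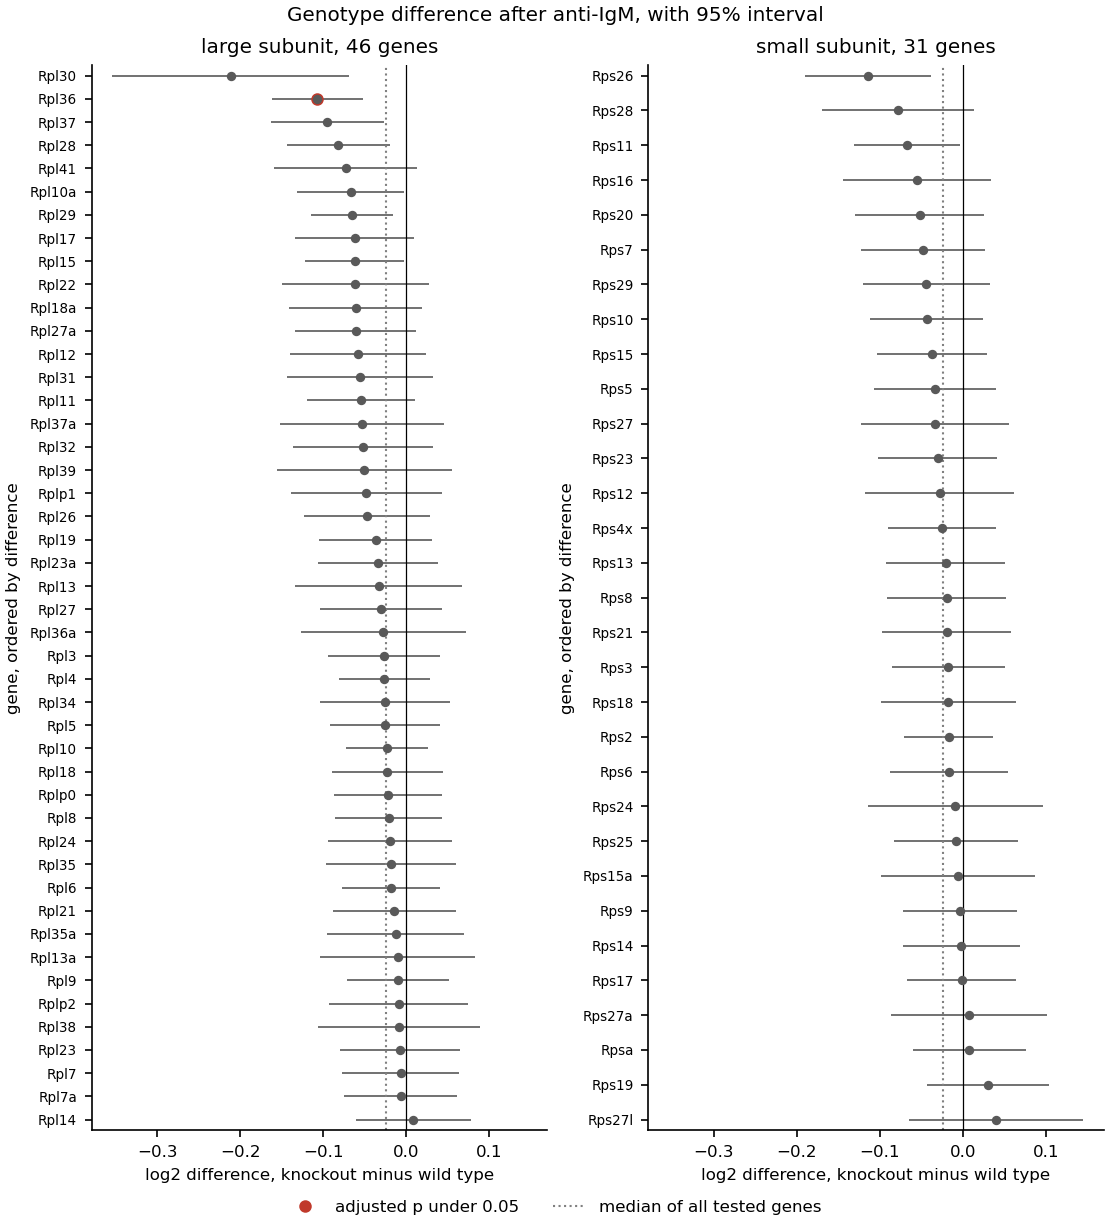
Log2 difference between the 4 knockout and 4 wild-type stimulated libraries for each member with a mean of at least 5 FPKM (46 large subunit genes left, 31 small subunit genes right), with its 95% interval; the dotted line is the median of all tested genes. Rpl36 (red) alone passed the test, at -0.11, and most intervals cross 0.

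After 2 h with anti-IgM, most members were lower than in the unstimulated libraries. The antibody and the time in culture cannot be told apart in this comparison. In the fit over 10 libraries that also carries a genotype term, 70 of 79 members were lower and 1 was higher (limma, adjusted p under 0.05), where 47.7% of all tested genes were lower and 31.2% higher. The median member changed by -0.44 on the log2(FPKM + 1) scale, against -0.17 for all tested genes, and 68 of 79 members lay below that median of all genes. The falls were moderate: 0 members passed the test with a log2 change of -1 or less, where 12.4% of all tested genes did. The 2 unstimulated libraries carry this whole comparison, and they differed from each other for these genes, as described below.

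The 5 largest falls came from both subunits. Rpl39, a very small protein that lines the exit tunnel of the nascent chain, held 5167 FPKM in unstimulated wild type and 3045 in unstimulated knockout. After anti-IgM it held 2038, 2326, 2246 and 2065 FPKM in wild type and 2042, 2031, 2105 and 2189 in knockout. All stimulated values were below both unstimulated ones, and the stimulated genotypes overlapped. Its log2 change was -0.90 (SE 0.125, limma adjusted p = 4.5e-05).

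Rps27 fell by 0.78 (SE 0.106, limma adjusted p = 3.8e-05). It held 15420 and 10270 FPKM in the unstimulated wild-type and knockout libraries, 7098, 7723, 7606 and 7248 in stimulated wild type, and 7077, 6995, 7311 and 7607 in stimulated knockout. Its stimulated values were all lower than both unstimulated values, and the genotypes overlapped after stimulation. The call was lost with quantile normalization (-0.094, limma adjusted p = 0.224).

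Rps21, a small protein of the small subunit, held 2958 and 1963 FPKM unstimulated, 1411, 1546, 1425 and 1404 in stimulated wild type, and 1400, 1411, 1469 and 1425 in stimulated knockout, again with no stimulated value reaching an unstimulated one. Its log2 change was -0.75 (SE 0.1). Rpl13a, also known as a part of a complex that blocks translation of inflammatory mRNAs, fell by 0.71 (SE 0.0932), and Rpl37a, a zinc-binding protein of the large subunit, by 0.68 (SE 0.0921).

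A few members were not called lower. Rps27l was the called rise: it held 143.9 and 104.1 FPKM unstimulated, 151.4, 163, 167 and 155.8 in stimulated wild type, and 152.4, 159.6, 169.4 and 174.4 in stimulated knockout. All stimulated values were above both unstimulated ones. Its log2 change was 0.40 (SE 0.0939, limma adjusted p = 0.00234), and the call was lost without the unstimulated knockout library (0.14, limma adjusted p = 0.1), under quantile normalization (0.17, limma adjusted p = 0.128) and with the letter as a block (0.31, limma adjusted p = 0.0656). Rps27l thus differed from its paralog Rps27, whose change had the opposite sign.

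The other 8 members outside the calls were the stalk proteins Rplp0 and Rplp2, the large subunit proteins Rpl4, Rpl7a and Rpl8, Rps2 and the low paralogs Rps4l and Rpl39l. Rps2, which sits near the mRNA entry channel of the small subunit, held 1211 and 1100 FPKM unstimulated, 1154, 1173, 1162 and 1150 in stimulated wild type, and 1116, 1150, 1184 and 1135 in stimulated knockout. The stimulated values lay between the 2 unstimulated ones (log2 change -0.0016, 95% interval -0.099 to 0.096). Rps2 was called higher, by 0.16 to 0.24, with rescaling to the same sum, median-of-ratios scaling, quantile normalization and removal of GC and length trends. Rpl8, a protein near the peptidyl transferase centre, held 1638 and 1698 FPKM unstimulated and 1616 to 1736 FPKM stimulated, with a change of 0.00026 (95% interval -0.1 to 0.1). It too was called higher with each of these 4 scalings, by 0.16 to 0.33 (limma adjusted p from 2.99e-05 to 0.0119). Rpl4 and Rpl7a, named for being uncalled, changed by -0.11 and -0.13 (limma adjusted p = 0.0515 and 0.0587), and Rpl4 turned to 0.22 under quantile normalization.

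The stalk that recruits translation factors to the large subunit was not uniform. Its base Rplp0 held 1664 and 1500 FPKM unstimulated, 1466, 1572, 1491 and 1530 in stimulated wild type and 1462, 1502, 1534 and 1468 in stimulated knockout, a change of -0.072 (SE 0.0489, limma adjusted p = 0.196). Rplp2 held 2015 and 2327 FPKM unstimulated, 2189, 2180, 2174 and 2083 in stimulated wild type and 2103, 2090, 2305 and 2078 in stimulated knockout, a change of -0.011 (SE 0.0622, limma adjusted p = 0.875). Both were called higher with median-of-ratios scaling and with quantile normalization, Rplp0 also at the same sum and Rplp2 also after removal of GC and length trends. Rplp1, the partner of Rplp2, held 3758 and 2723 FPKM unstimulated, 2237, 2496, 2297 and 2292 in stimulated wild type and 2203, 2211, 2382 and 2218 in stimulated knockout, and fell by 0.48 (SE 0.0847, limma adjusted p = 2.9e-04), though its value was 0.026 under quantile normalization. So within the stalk the stimulated values of Rplp1 lay below both unstimulated ones, while those of Rplp0 and Rplp2 overlapped them. Rpsa, which also acts at the cell surface as a laminin receptor, held 1896 and 1470 FPKM unstimulated, 1210, 1302, 1221 and 1221 in stimulated wild type, and 1205, 1257, 1272 and 1246 in stimulated knockout. All its stimulated values were below the unstimulated ones (log2 change -0.43, SE 0.0728, limma adjusted p = 2.28e-04). The call was lost with median-of-ratios scaling (-0.19, limma adjusted p = 0.0627).

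Several members chosen here for known roles, outside the naming rule, followed the majority. Rps6, the substrate of the S6 kinases, changed by -0.32 (SE 0.0581, limma adjusted p = 3.58e-04), and Rps3, which lines the mRNA entry, by -0.43 (SE 0.0816). Rpl5 and Rpl11, which carry the 5S rRNA and bind Mdm2 when free, changed by -0.31 and -0.45. Rpl22, needed for T lymphocyte development, changed by -0.57 (SE 0.088) from 305.1 and 208.5 FPKM unstimulated. Rpl38, a small protein known for skeletal patterning defects when reduced, changed by -0.58 (SE 0.123). All 6 passed the test on deposited FPKM, but with median-of-ratios scaling the calls of Rps6, Rps3, Rpl5 and Rpl11 were lost (limma adjusted p = 0.313, 0.0812, 0.376 and 0.0511). Those of Rps6 and Rpl5 were also lost after removal of GC and length trends, and that of Rpl11 with quantile normalization (-0.0039, limma adjusted p = 0.91).

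**Figure D3:**
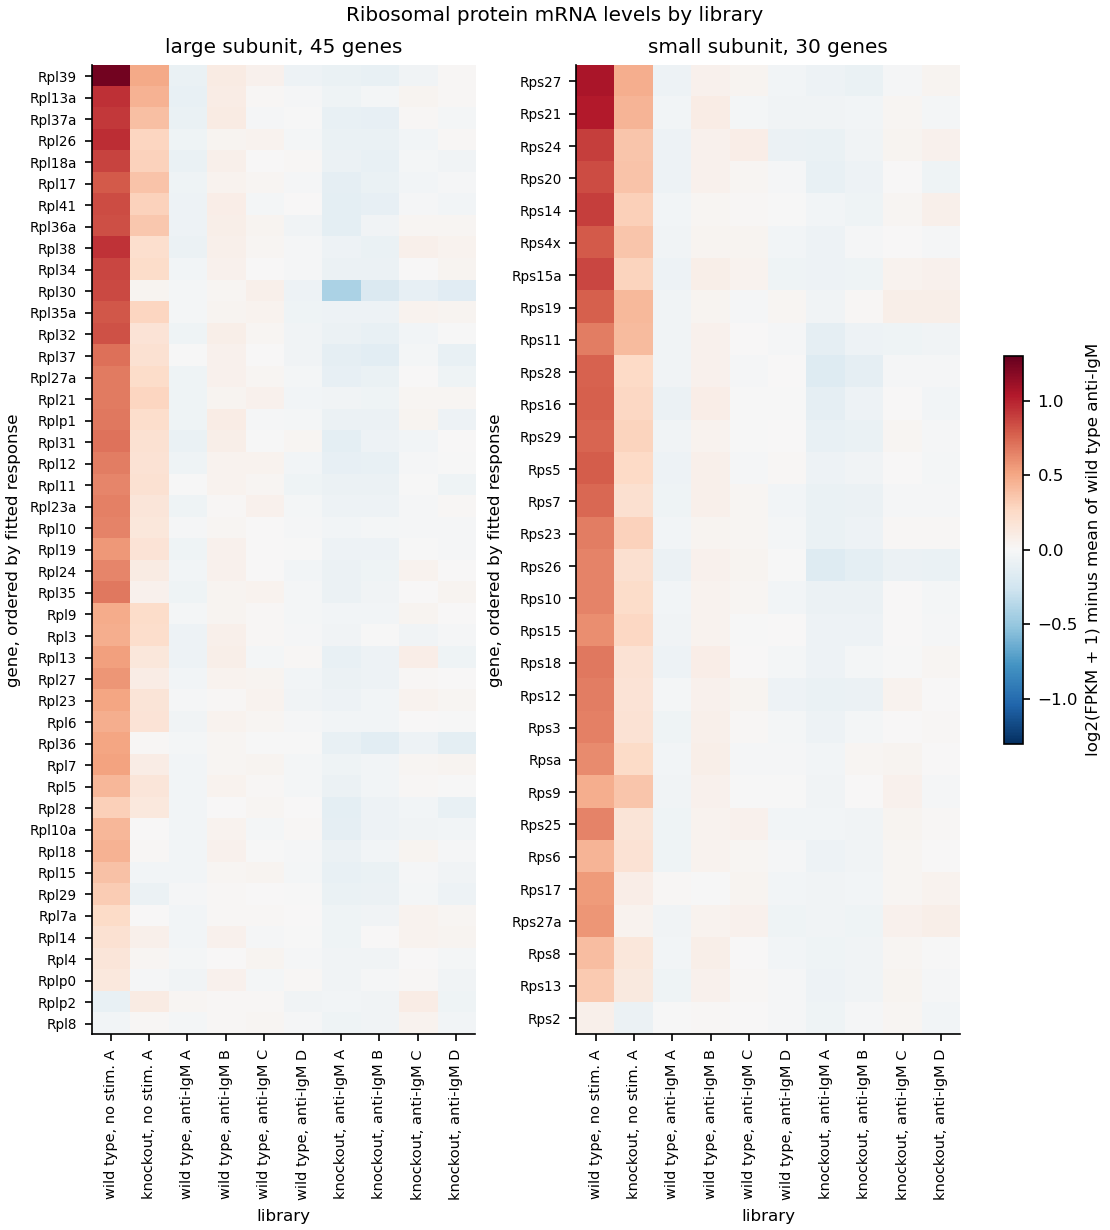
Level of each of the 75 members with at least 200 FPKM in each of the 10 libraries, as log2(FPKM + 1) minus the mean of the 4 stimulated wild-type libraries (red higher, blue lower), large subunit left and small subunit right, ordered by the fitted response. The first column, the unstimulated wild-type library, is red for nearly all genes, the second less so, and the 8 stimulated columns differ little, apart from Rpl30 in knockout library A.

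How many members were called lower depended on the scale. The summed FPKM of the listed genes was 674961 and 595500 in unstimulated wild type and knockout and 557214 to 571784 in stimulated libraries. The counts lower and higher were 63 and 4 after rescaling to the same sum, 38 and 5 with median-of-ratios scaling, 35 and 13 with quantile normalization, and 43 and 7 after removal of GC and length trends. The median of the members was then -0.28, -0.21, -0.059 and -0.19, against medians of all tested genes of -0.029, 0.035, -0.00216 and -0.011. Without the unstimulated wild-type library the counts were 60 and 1 with a median of -0.24, and without the unstimulated knockout library 73 and 1 with a median of -0.66. Under all 5 scalings just given, deposited FPKM included, the same 26 members were called lower and 0 were called higher. Among the 26 were Rpl39, Rps21, Rpl13a, Rpl37a, Rps19, Rps4x, Rpl22, Rpl37 and Rpl38. The share of all tested genes called lower was 47.7% on deposited FPKM and is not given for the other settings. The 26 are therefore calls that held across scalings, and an excess over other genes was not tested.

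A quantity free of the library's scale is each member's percentage of the members' own sum. Of the 75 members with at least 200 FPKM, 30 held a larger percentage in all 8 stimulated libraries than in both unstimulated ones, 17 a smaller one, and 28 overlapped. Rps2 went from 0.5797% and 0.7219% (wild type and knockout, unstimulated) to 0.8737% to 0.9265%, and Rpl8 from 0.7842% and 1.114% to 1.262% to 1.333%. Rplp2 went from 0.9648% and 1.528% to 1.611% to 1.769%. Rps27 went from 7.383% and 6.741% to 5.611% to 5.895%, and Rpl39 from 2.473% and 1.998% to 1.616% to 1.733%. The median coding length of the 30 was 618 nt, and that of the 17 was 357 nt. By subunit, 22 of 45 large and 8 of 30 small subunit members gained, and 9 and 8 lost. These percentages have a fixed sum, so a fall of an abundant member such as Rps27 raises those of other members. No like count of another gene group is given, so the counts describe members only relative to each other.

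The unstimulated libraries of the genotypes differed for most members. With 1 library each the values are a description. The knockout library stood below the wild-type one for 75 of 79 members, with a median log2 difference of -0.46, whereas 40.4% of all tested genes were lower there, at a median of 0.067. Rpl30 differed by -0.83 and Rpl39 by -0.76. Rplp2 (0.21) and Rpl8 (0.051) went the other way, as did the low paralogs Rps4l and Rpl39l. The stimulated mean minus the unstimulated library had a median of -0.66 for wild type (all tested genes -0.13) and -0.24 for knockout (all tested genes -0.21). It was below 0 for 74 members in wild type and 75 in knockout. Rpl39 changed by -1.254 in wild type and -0.54 in knockout, and Rps27 by -1.06 and -0.50.

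The difference in response, fitted with limma as an interaction in which the lone unstimulated library of each genotype is assumed to vary like the stimulated ones, was higher for 67 and lower for 0 of 79 members (adjusted p under 0.05), where 4.18% of all tested genes were higher and 14.7% lower. Higher here means a smaller fall in the knockout libraries. The median was 0.42, against -0.096 for all tested genes. Rpl38 showed the largest value, 0.72 (SE 0.0972, limma adjusted p = 0.00286), from unstimulated levels of 3245 and 1961 FPKM and stimulated means of 1691 ± 70.9 and 1681 ± 88.1 FPKM (SD, n = 4 each). Rplp2 (-0.22, limma adjusted p = 0.101), Rplp0 (0.13, limma adjusted p = 0.202), Rps2 (0.12, limma adjusted p = 0.146) and Rpl8 (-0.072, limma adjusted p = 0.476) did not pass. Scaling changed the counts to 24 higher and 6 lower under quantile normalization and to 41 and 0 after removal of GC and length trends. The shares of all tested genes given above belong to deposited FPKM, and none is given for the other scalings. Since the stimulated genotypes hardly differed, the comparison rests on the pair of unstimulated libraries, and genotype and library cannot be told apart in it.

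**Figure D4:**
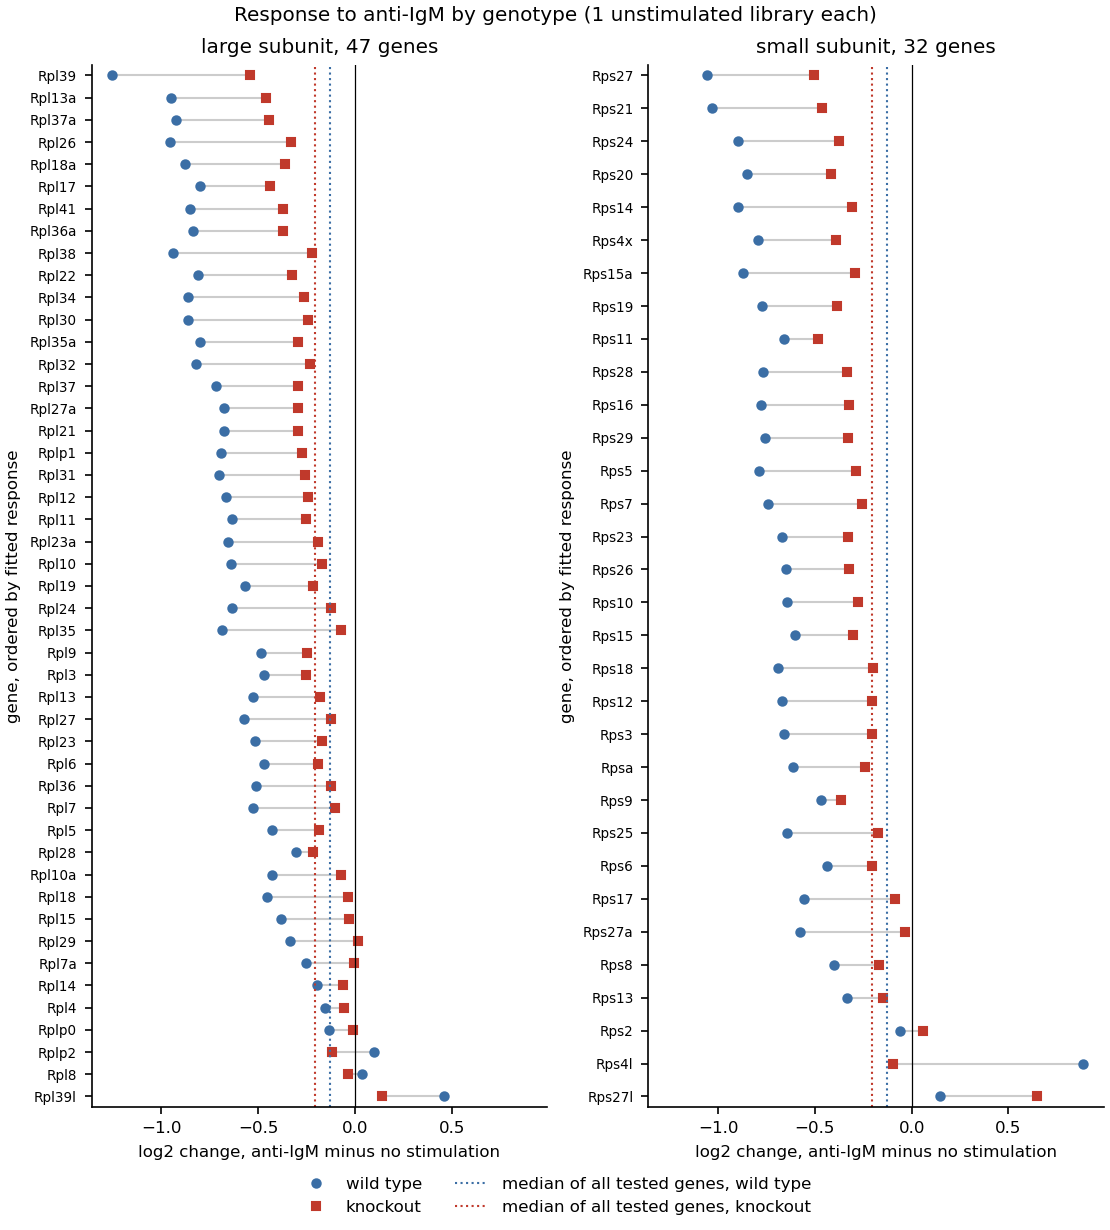
Stimulated mean minus the single unstimulated library, in log2 units, for each tested member in wild type (blue circles) and knockout (red squares), with dotted lines at the median of all tested genes of each genotype. The wild-type points lie to the left of the knockout points for nearly all members, with medians of -0.66 and -0.24, and Rplp2, Rpl8, Rpl39l and Rps4l are the exceptions.

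Short members differed most between these libraries. Over the 75 members with at least 200 FPKM, Spearman's rho with coding length was 0.5995 for the unstimulated difference, 0.6003 for the wild-type response and 0.455 for the knockout response, as a description across genes that share libraries. Without the 3 members over 900 nt it was 0.5619, 0.563 and 0.4248 over 72 members. The 11 members of up to 300 nt had medians of -0.53, -0.85 and -0.33 in these quantities, and the 18 members of 600 to 900 nt had -0.37, -0.45 and -0.18. The wild-type and knockout responses share no library, and their rho over the 75 members was 0.7897.

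Coding length moved with the same quantities outside the members. In the unstimulated pair the 213 other tested genes of up to 300 nt had a median of -0.18 and the 4064 over 1500 nt a median of 0.13. In the wild-type response the same groups had -0.32 and -0.056, and in the knockout response -0.27 and -0.20. In every length group up to 900 nt the members' medians lay below those of the other genes for the unstimulated difference and the wild-type response. The part of transcript length in the members' values was not tested beyond the alternative that removes GC and length trends.

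**Figure D5:**
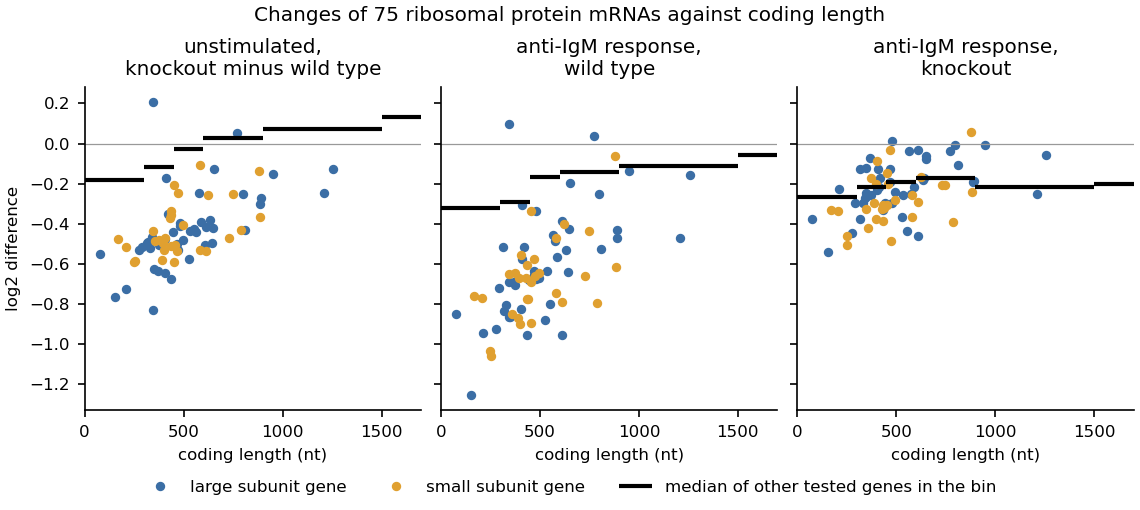
Log2 difference of the unstimulated pair (left), wild-type response (middle) and knockout response (right) against coding length in nucleotides for the 75 members, with black bars at the median of other tested genes in each length bin (the last bin, over 1500 nt, is drawn to 1700). Short members lie lowest, and the black bars rise with length in the left and middle panels.

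Members were also divided by the tract at their start. The 28 members with a tract within 5 bases had a median stimulation change of -0.46, the 30 without one -0.43, and the 21 tested members with no promoter in the table -0.48. Rplp2, with its tract at the start itself, changed by -0.011, and Rpl37a, in which none was found, fell by 0.68. The split follows the annotated starts. Rps25 and Rpl4 were counted as without a tract, yet pyrimidine runs lie farther before their annotated starts. The split therefore cannot decide whether the tract has a part in the response.

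Other gene groups tied to ribosomes gave other counts. All 33 of 33 ribosome assembly factors were higher with anti-IgM (limma, adjusted p under 0.05), with a median of 1.34, where 31.2% of all tested genes were higher and 47.7% lower; the counts of the lists that follow stand against the same shares. Rrp1b, a nucleolar protein, rose by 2.24 (SE 0.0606), Nolc1, a nucleolar chaperone, by 1.97, Gnl3 by 1.69 and Tsr1, a factor of small subunit maturation, by 1.45. Among 19 tested regulators, 12 were higher and 2 lower. Myc rose by 3.33 (SE 0.0762) from 61.46 and 88.89 FPKM unstimulated to 720.4 ± 25.4 in wild type and 784.4 ± 30.1 FPKM in knockout (SD, n = 4 each), and Larp1 by 1.71 (SE 0.0813). Larp4 rose by 1.22 and Eif4ebp1, the mTOR target that restrains cap-dependent translation, by 1.32.

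Of 15 other mRNAs known to carry a TOP tract, 6 were higher (31.2% of all tested genes) and 2 lower (47.7%), with a median of 0.018. Npm1, a nucleolar chaperone, rose by 1.02 (SE 0.0793), Pabpc1, the poly(A)-binding protein, by 0.62, Eef1d by 0.37 and Hnrnpa1 by 0.32. Of 76 mitochondrial ribosomal proteins, 34 were higher and 18 lower (31.2% and 47.7% of all tested genes), with a median of 0.058. Of 7 tested ribosomal proteins and paralogs whose symbols fall outside the name pattern, 4 were lower and 1 higher. Fau, made as a fusion with a ubiquitin-like protein, changed by -0.67 (SE 0.0834) and Rps3a1 by -0.38 (0.083 under quantile normalization), whereas Rpl7l1, a paralog of Rpl7 with a part in ribosome assembly, rose by 0.85 (SE 0.0385). Of the 6 rows of processed copies, 4 were lower. Between genotypes after anti-IgM, 1 of 33 assembly factors and 2 of 19 tested regulators were lower, where 5.81% of all tested genes were. Of 76 mitochondrial ribosomal proteins, 1 was higher, against 3.91% of all tested genes.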

How the data were processed

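The authors deposited 1 table of gene-level FPKM for 10 libraries. STAR 2.4, RSEM 1.2.14 and mm10 are named in the submitters' processing notes, and per the labels libraries were made with a stranded mRNA kit; strand settings and annotation are not given in the sources used here. Values were analysed as log2(FPKM + 1), which understates changes of low genes. Genes averaging at least 1 FPKM were tested with limma 3.58.1 (R 4.3.3; lmFit, eBayes with trend), two-sided, with Benjamini-Hochberg adjustment over all 10225 tested genes and calls at 0.05. Fits compared genotypes over 8 stimulated libraries, stimulation over 10 with genotype as a term, and the difference in response over 4 group means. The code was tested on simulated data.

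Members, lists and tests were chosen with earlier results of these data known. Members named are the stalk proteins, Rpsa, paralogs ending in l or x, the 3 highest and 3 lowest levels, the 5 largest rises and falls of the genotype and stimulation fits, and called members of the genotype fit; up to 4 genes per list are named by smallest adjusted p, and 1 gene that meets this rule is not reported here. Coding length, transcript length and GC came from GENCODE M21 (GC and length for 95.16% of tested genes), promoters from RefSeq. Alternatives covered pseudocounts of 0.1 and 5, low-value filters, 5 other scalings, other eBayes settings, a letter block and leaving out each library; those of the interaction with pseudocounts, the sum of other genes and GC and length were added after seeing the data. Stimulated libraries of a genotype correlated at r of at least 0.987, and no 2 libraries were identical.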

Additional observations from a re-analysis of the deposited data

Results flagged for a closer look

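In 54 groups of 4 stimulated libraries examined, 9 held 1 library far from the other 3. Chance at 1 in 20 gives 2.7 if the groups are independent. They are not, since members moved together within a library, so 9 against 2.7 does not measure an excess over chance. Wild-type library B stood high for Rpsa (1302 FPKM, others 1210 to 1221) and Rps21 (1546, others 1404 to 1425), and it listed Rpl3l at 0.05 FPKM where the others were at 0. Wild-type library D stood low for Rplp2 (2083, others 2174 to 2189), and wild-type library C high for Rpl39l (2.76, others 0 to 0.3). Knockout library C stood high for Rplp1 (2382, others 2203 to 2218) and Rplp2 (2305, others 2078 to 2103). Knockout library A stood high for the low paralogs Rps4l (5.97, others 4.06 to 4.32) and Rpl39l (7.6, others 0.5 to 1.16). Wild-type library B and knockout library C are also the libraries in which most members were highest of their 4.

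In the limma interaction, 16 named members passed an adjusted p under 0.05, each with a smaller fall or larger rise in the knockout libraries. With 1 unstimulated library per genotype, genotype and library cannot be told apart, so these values describe the libraries and do not establish a difference between genotypes; over all members the calls dropped from 67 higher and 0 lower to 24 and 6 under quantile normalization. The log2 differences were 0.7124 for Rpl39, 0.6167 for Rpl30, 0.5723 for Rps21, 0.5529 for Rps27, 0.5036 for Rps27l, 0.4928 for Rpl13a, 0.4785 for Rpl37a and 0.4656 for Rps12. They were 0.4293 for Rps29, 0.4225 for Rpl37, 0.4169 for Rplp1, 0.4048 for Rps4x, 0.3879 for Rpl36, 0.3852 for Rps19, 0.3747 for Rpsa and 0.3235 for Rps26.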

How the results depend on the processing

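Lower calls between genotypes (1 of 79) were 2 after rescaling to the same sum, to the sum of other genes, under quantile normalization and with robust eBayes, and 0 under median-of-ratios scaling, after removal of GC and length trends (median 0.02971) and with eBayes without trend. Leaving out a library gave 0 to 2. With the stimulation, calls at a log2 size of at least 1 were 0 both ways. Higher calls and medians were 4 and -0.28 at the same sum, 5 and -0.21 with median-of-ratios, 13 and -0.059 with quantile and 7 and -0.19 after GC and length removal, and lower calls under the last 3 were 38, 35 and 43. Rescaling to the sum of other genes gave a median of -0.39. Without the unstimulated wild-type library the median was -0.24 and without the knockout one -0.66. Large minus small was 0.082 in the stimulation fit, -0.033 under quantile normalization and 0.029 (without the unstimulated knockout library) to 0.086 with a library left out.

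Signs reversed for Rplp0 (0.092 at the same sum, 0.16 median-of-ratios, 0.20 quantile), Rpl14 (0.036, 0.11, and 0.098 after GC and length removal), Rps2 (0.16, 0.23, 0.20 quantile, 0.24 GC and length), Rplp2 (0.23 median-of-ratios, 0.33 quantile, 0.25 GC and length) and, under quantile normalization, Rplp1 (0.026), Rps12 (0.095), Rpl28 (0.048), Rps3a1 (0.083) and Rpl4 (0.22). Rpl29 was 0.0042 at the same sum, 0.076 with median-of-ratios, 0.037 with quantile, 0.16 after GC and length removal, and -0.33 (without the unstimulated knockout library) to 0.014 (without the wild-type one) with a library left out. In the interaction, higher calls were 24 with quantile and 41 after GC and length removal, lower calls 2 at the same sum, 6 with quantile and 1 at the sum of other genes, and 0 to 1 without a library. Its medians were 0.25, 0.48, 0.068, 0.35 and 0.29 at the same sum, with median-of-ratios, quantile, sum of other genes and GC and length removal, and large minus small was 0.028 with quantile. The cause was not tested.

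Over all tested genes, same-letter stimulated libraries did not deviate together (r of -0.021, 0.045, 0.0075 and -0.12), so the letters were not taken as pairs. The 75 members alone shared their lowest letter: A was lowest for 58 of them in wild type and 56 in knockout. The most frequent highest library differed, B in wild type and C in knockout. Lyz2 was highest in library B of both genotypes. A part of the letter in the members' values was not tested apart from the block. The replicate block gave 0 lower calls between genotypes and 0 higher calls with stimulation (65 lower). Over the alternatives of the stimulation fit, 1414 single-gene values, list genes included, kept direction and side of the threshold. With unchanged direction, 81 lost the call and 15 gained it; 23 changed sign with a call before or after, and 22 changed sign with none. The unknown depth, the single unstimulated library of each genotype and the unknown culture time of these libraries limit every stimulation result.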
